A study of Mus musculus with 12 samples.

Results

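The 10 genes described here encode subunits of the AMPA and NMDA receptors for glutamate: Gria1, Gria2, Gria3 and Gria4 for AMPA receptors, and Grin1, Grin2a, Grin2b, Grin2c, Grin2d and Grin3a for NMDA receptors. They were taken by symbol from a total RNA table of 24736 gene symbols, and all 10 were found and passed the filter on low counts. That table comes from the hippocampus of 6 male mice aged 4 months. There were 3 transgenic APP/PS1 mice, which carry APPswe and PSEN1dE9, and 3 wild type (WT) littermates, with 1 library taken per mouse. The APP/PS1 libraries are numbered 1, 2 and 3 and the WT libraries 1, 2 and 4. Small RNA libraries of the same groups were not analysed here. The labels name neither the promoter of the transgenes nor the founder line, and no shared deletion or treatment.

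Both receptor families are cation channels opened by glutamate at excitatory synapses. AMPA receptors carry the fast current, and the edited Gria2 product makes a channel nearly impermeable to calcium, so the share of Gria2 among the Gria transcripts is often followed. NMDA receptors need the Grin1 product together with Grin2 or Grin3 products, admit calcium and start many forms of synaptic plasticity. In forebrain the Grin2b product prevails early in life and Grin2a is added as synapses mature. Grin2c transcripts are best known from cerebellar granule cells, and Gria4 transcripts are also abundant in cerebellum and in fast-spiking interneurons.

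Libraries summed to 120958765 to 146904552 estimated counts, and values are given as CPM, estimated counts per 1000000 counts of the library, scaled by TMM. App, the transgene check, stood between 1522 and 1580 CPM in WT libraries and between 2948 and 3465 CPM in those of APP/PS1 mice, so the libraries matched their genotype labels. Prnp lay between 475 and 527 CPM in WT and between 937 and 1160 CPM in APP/PS1. Markers of the hippocampal fields were present in all 6 libraries. One library stood apart: APP/PS1 replicate 3 differed more than 2-fold from the mean of the other 5 for 4.97% of the 18060 tested genes, against 1.29%, 1% and 1.17% for WT replicates 1, 2 and 4 and 1.36% and 1.19% for APP/PS1 replicates 1 and 2, each taken in the same way. The 5 listed markers of cerebellar granule and Purkinje cells summed to 3118 CPM there and to 7.28 to 11 CPM in the other 5. Among these markers, the granule cell gene Gabra6 was at 283 CPM there and at 0 to 0.33 CPM elsewhere. Summed CPM of the CA1 pyramidal markers was 268 in that library and 453 to 538 in the others. For the dentate granule markers it was 163 against 245 to 257, and for the CA3 markers 46.8 against 58.4 to 78.9. Lower there as well were sums of markers of microglia (135 against 193 to 222), oligodendrocyte precursors (140 against 199 to 211) and neocortex layers (169 against 238 to 325). So were those of excitatory neurons (831 against 1206 to 1332), oligodendrocytes (2554 against 2597 to 3989) and neurons in general (5875 against 6826 to 7477). Of the 8 general neuronal markers, 3 were above and 3 below all other libraries there. Higher there were sums of markers of endothelium (199 against 164 to 191) and striatal medium spiny neurons (115 against 72.9 to 105). Choroid plexus markers, 7 in number, summed to 3922 CPM in APP/PS1 replicate 2 and to 1451 to 2357 CPM in the others. The part of these differences in any result below was not tested, and the edgeR comparisons and the ratios are given with and without this library.

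Promoter windows were found for 5 of the 10 members, and upstream sequence is shown for the 3 whose window reaches outside the annotated gene. Among these, Gria4 and Grin2c had high values in APP/PS1 replicate 3, and Grin1 is the subunit that NMDA receptors share. Each runs 5′ to 3′ on the minus strand up to the base before the start of the gene (RefSeq, GRCm38.p6, the build also called mm10). For Grin1 it covers chr2:25319188-25319437, for Gria4 chr9:4796235-4796484 and for Grin2c chr11:115267298-115267493. Capitals mark matches on either strand to any of 4 short promoter motifs, namely the GC box (GGGCGG), the TATA box (TATAAA), the inverted or direct CCAAT motif and the palindromic E box (CACGTG).
Grin1: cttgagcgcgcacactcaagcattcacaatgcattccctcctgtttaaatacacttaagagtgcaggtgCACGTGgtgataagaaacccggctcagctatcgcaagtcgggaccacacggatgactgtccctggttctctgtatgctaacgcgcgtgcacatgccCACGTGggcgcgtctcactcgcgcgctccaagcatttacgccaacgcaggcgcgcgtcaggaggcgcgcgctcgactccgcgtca
Gria4: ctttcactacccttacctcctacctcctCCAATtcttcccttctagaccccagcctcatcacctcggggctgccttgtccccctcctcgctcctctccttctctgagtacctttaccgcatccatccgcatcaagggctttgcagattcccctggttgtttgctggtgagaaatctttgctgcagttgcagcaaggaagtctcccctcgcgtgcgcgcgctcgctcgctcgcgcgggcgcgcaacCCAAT
Grin2c: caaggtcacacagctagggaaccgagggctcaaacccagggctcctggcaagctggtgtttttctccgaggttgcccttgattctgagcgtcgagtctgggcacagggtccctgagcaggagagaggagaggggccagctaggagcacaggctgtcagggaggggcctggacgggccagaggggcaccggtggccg
The Grin1 window holds 2 matches to CACGTG, which 6.02% of 32851 RefSeq promoter windows of 250 bases hold. The Gria4 window holds 2 matches to CCAAT, held by 33.8% of windows. The 250 bases before the RefSeq start of Grin2c hold 3 matches to GGGCGG, held by 32.7% of windows, all of them nearer the start than the 196 bases shown, in bases that another Grin2c transcript covers. No match to TATAAA, held by 12.4% of windows, lies in these 3 windows. The Gria4 and Grin2c windows share none of the 4 motifs, and CG dinucleotides number 27 in the Grin1 window, 16 in that of Gria4 and 15 in that of Grin2c, against a median of 6 over all windows. A match describes letters only, and binding was not measured.

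None of the 10 subunits passed the comparison of APP/PS1 with WT. With edgeR's quasi-likelihood test and Benjamini-Hochberg adjustment over all 18060 genes, 0 of 10 had an adjusted p under 0.05, where 0.00554% of all genes tested did. At an unadjusted p under 0.05 there were 0 of 10, against 3.42% of all genes. App and Prnp, each at a log2 fold change of 1.04, missed the adjusted threshold too (edgeR adjusted p = 0.117 and 0.165). Without APP/PS1 replicate 3 both passed it (edgeR adjusted p = 0.0136 and 0.0172). With 6 libraries, a missed threshold therefore does not by itself exclude a difference of that size. DESeq2 called 0 of 10 (0.117% of all genes) and limma-voom called 0 of 10 (0.0055% of all genes). In no subunit did the 3 APP/PS1 values lie wholly above or below the 3 WT values, which was the case for 10.4% of all genes tested (5.63% with APP/PS1 above, 4.76% with APP/PS1 below). The log2 fold change, APP/PS1 over WT, was positive for 3 subunits and negative for 7, with a median of -0.11 against 0.01 over all genes.

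**Figure D1:**
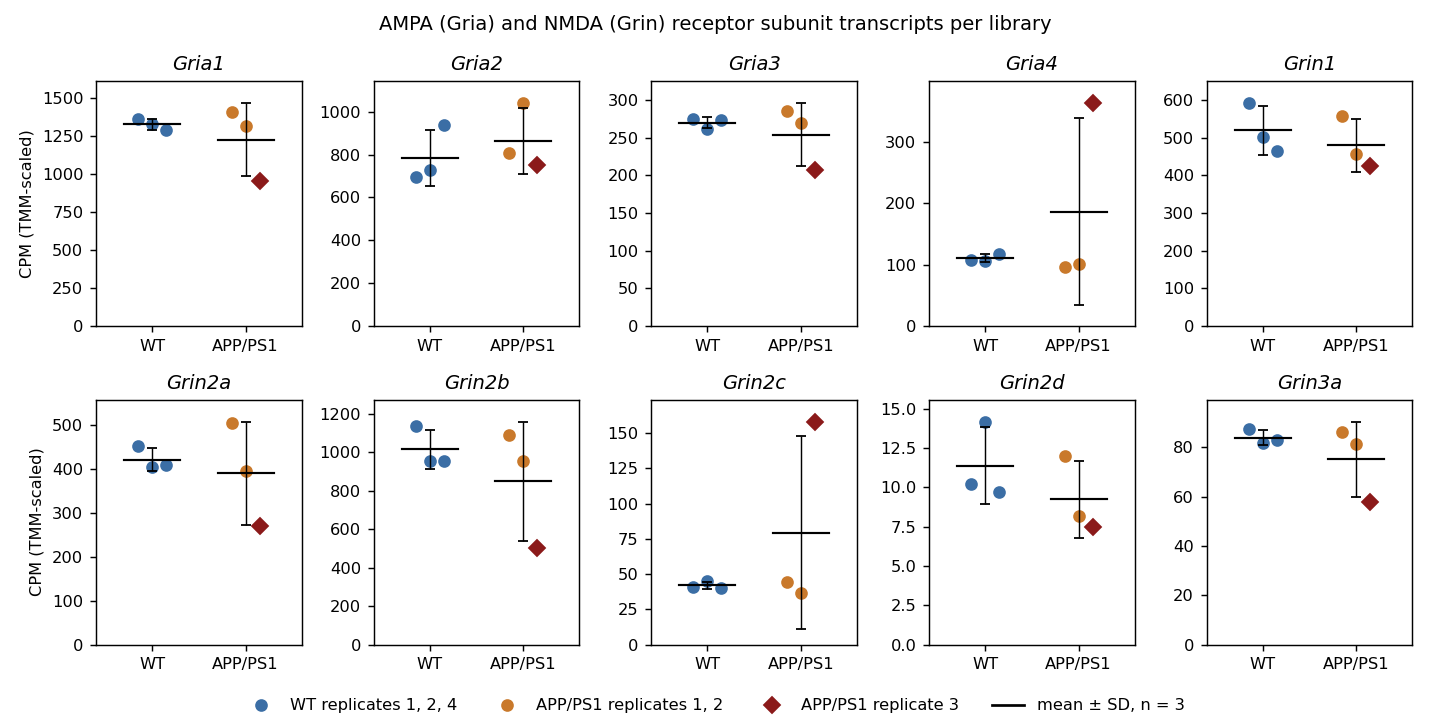
CPM of the 10 subunits in each library, with WT at left and APP/PS1 at right in each panel; every axis starts at 0, and bars show mean ± SD (n = 3). The diamond, APP/PS1 replicate 3, is the highest point for Gria4 and Grin2c and the lowest for 7 other subunits, and the highest of the remaining 5 points is between 1.07 times (Grin3a) and 1.73 times (Grin2d) the lowest.

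Gria1 encodes the AMPA subunit that is typical of hippocampal pyramidal cells and is inserted during potentiation (chromosome 11, 57011571 to 57330244, GRCm38.p6 as for all positions). It stood at 1367, 1329 and 1290 CPM in WT replicates 1, 2 and 4 and at 1411, 1317 and 956 CPM in APP/PS1 replicates 1, 2 and 3. The first 2 APP/PS1 libraries lay in or just above the WT range and replicate 3 below it. The WT mean was 1329 ± 38.8 CPM and that of APP/PS1 1228 ± 240.1 CPM (SD, 3 mice per genotype). Its log2 fold change was -0.11 (SE 0.15, edgeR adjusted p = 0.894), or 0.03 (SE 0.06, edgeR adjusted p = 0.995) without APP/PS1 replicate 3.

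Gria3, whose product often pairs with that of Gria2 (chromosome X, 41400819 to 41678601), was also lowest in APP/PS1 replicate 3. Its values were 275, 262 and 274 CPM in WT and 286, 269 and 207 CPM in APP/PS1, and it had the smallest coefficient of variation of any member in WT, 2.61%. The log2 fold change was -0.09 (SE 0.13) with all libraries and 0.03 (SE 0.06) without APP/PS1 replicate 3.

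Gria2 (chromosome 3, 80681450 to 80804227) varied within both genotypes. It was at 695, 727 and 936 CPM in WT and at 806, 1039 and 750 CPM in APP/PS1. WT replicate 4 and APP/PS1 replicate 2 were the highest of their groups, and the groups overlapped. APP/PS1 replicate 3 lay inside the range of the other libraries, which held for no other member. The WT mean was 786 ± 131 CPM and that of APP/PS1 865 ± 153 CPM, a log2 fold change of 0.14 (SE 0.17, edgeR adjusted p = 0.888), or 0.23 without APP/PS1 replicate 3, with a 95% interval of -0.16 to 0.61.

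Gria4 (chromosome 9, 4417893 to 4796234) was nearly level in 5 libraries and high in a single one. It stood at 108, 106 and 117 CPM in WT, at 95.8 and 101 CPM in APP/PS1 replicates 1 and 2, and at 363 CPM in APP/PS1 replicate 3. That last value was 3.43 times the mean of the other 5, beside the cerebellar markers given above, and the other 2 APP/PS1 values lay below all WT values. With all libraries the log2 fold change was 0.75 (SE 0.51, edgeR adjusted p = 0.887). Without that library it was -0.18 (SE 0.07), with an unadjusted p of 0.0439 and edgeR adjusted p = 0.995. It was then the 1 member of 10 with groups that did not overlap, where all APP/PS1 lay below all WT for 9.73% of genes tested in those 5 libraries (above for 9.47%, not overlapping for 19.2%), and the direction was the opposite of that with 6.

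Grin1 (chromosome 2, 25291177 to 25319187) was at 591, 502 and 465 CPM in WT and at 558, 456 and 424 CPM in APP/PS1. The genotypes covered nearly the same range, with APP/PS1 replicate 3 lowest. Its log2 fold change was -0.12 (SE 0.14), or -0.04 (SE 0.13) without that library. Grin1os, a transcript annotated within the Grin1 interval, had 1.7% to 3.39% of the estimated counts of Grin1 in each library. Since the strand setting of the counting is not given in the sources used here, reads of the overlap cannot be assigned with certainty.

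Grin2a and Grin2b encode the main NMDA partners of Grin1 in adult hippocampus. Grin2a (chromosome 16, 9567901 to 9996083) stood at 451, 403 and 408 CPM in WT and at 504, 395 and 269 CPM in APP/PS1. Grin2b (chromosome 6, 135713221 to 136173615) stood at 1135, 957 and 958 CPM in WT and at 1091, 957 and 500.0 CPM in APP/PS1. For both genes APP/PS1 replicates 1 and 2 spread around the WT values and replicate 3 was far below them. Grin2b in that library was at 0.49 times the mean of the other 5, the lowest such value among the members, and Grin2a at 0.62 times. Their log2 fold changes were -0.11 (SE 0.21) for Grin2a and -0.26 (SE 0.27) for Grin2b. In the 5 remaining libraries they were 0.09 (SE 0.11) and 0.0064 (SE 0.10), and the 95% interval for Grin2b ran from -0.24 to 0.25.

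Grin2c (chromosome 11, 115249169 to 115267297) behaved like Gria4. It was at 40.8, 45.0 and 40.4 CPM in WT, at 44.1 and 36.3 CPM in APP/PS1 replicates 1 and 2, and at 158 CPM in APP/PS1 replicate 3, which is 3.82 times the mean of the other 5. Leaving that library aside, the genotypes overlapped. The log2 fold change was 0.92 (SE 0.54, edgeR adjusted p = 0.887) with it and -0.07 (SE 0.11, edgeR adjusted p = 0.995) without it. Astrocytes also transcribe Grin2c, and the 9 astrocyte markers summed to 6424 CPM in APP/PS1 replicate 3 and to 7406 to 8446 CPM in the other 5. Of these markers 4 were above and 3 below all other libraries there, and the median log2 deviation was 0.07. The part of either cell type in the Grin2c value was not tested.

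Grin2d (chromosome 7, 45831883 to 45871194), which in adult hippocampus is known from interneurons, was scarce at 10.2, 14.2 and 9.72 CPM in WT and 12, 8.18 and 7.49 CPM in APP/PS1. Its coefficient of variation in WT, 21.5%, was the largest among the members, and the log2 fold change of -0.30 (SE 0.23) became -0.18 (SE 0.23) without APP/PS1 replicate 3. The 9 interneuron markers summed to 913 CPM in that library and to 734 to 872 CPM in the other 5. Of the 9, 6 were lower there than in any other library, Sst among them at 39.7 CPM against 92.6 to 122 CPM, and 3 were higher. Gad1, which makes GABA, was at 325 CPM against at most 308 CPM, and Slc32a1, the vesicular GABA transporter, at 59.2 CPM against at most 56.4 CPM. Pvalb, a calcium-binding protein of fast-spiking interneurons and of Purkinje cells, was at 256 CPM against 19.6 to 28.3 CPM in the others. These 4 genes were picked after their values were seen, and their part in the result was not tested.

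Grin3a (chromosome 4, 49661611 to 49846023) encodes a subunit that lowers calcium entry through NMDA receptors and is highest in young animals. It was at 87.4, 81.8 and 82.9 CPM in WT and at 86.3, 81.3 and 57.7 CPM in APP/PS1. The highest of the 5 libraries other than APP/PS1 replicate 3 was 1.07 times the lowest, the narrowest range of any member, compared with 1.73 times for Grin2d. The log2 fold change was -0.16 (SE 0.15), or -0.0076 (SE 0.07) in those 5 libraries.

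**Figure D2:**
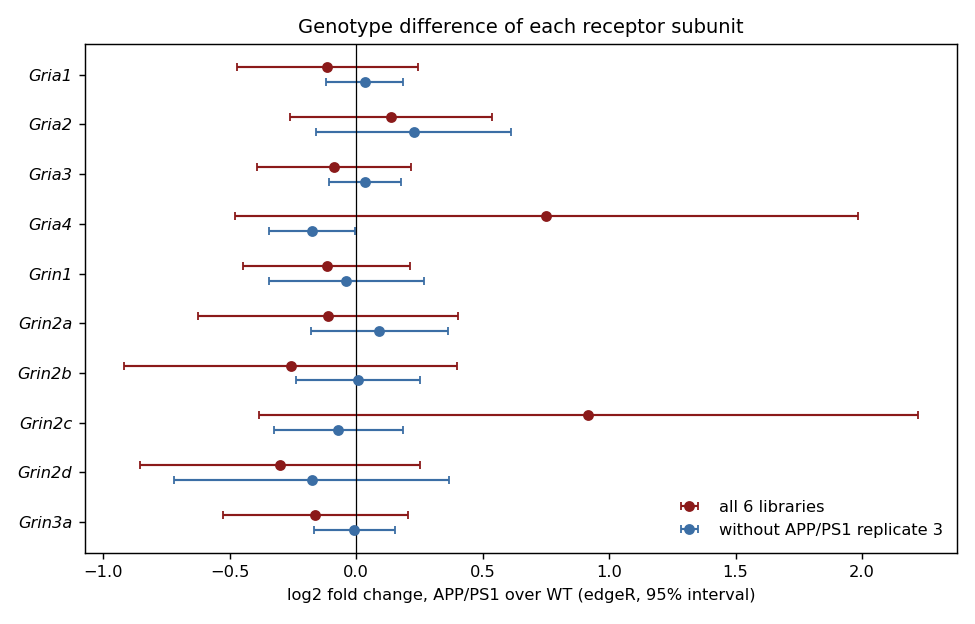
Log2 fold change of each subunit, APP/PS1 over WT, with its unadjusted 95% interval from edgeR, for all 6 libraries and for the 5 libraries without APP/PS1 replicate 3. All 10 intervals from 6 libraries include 0; without that library 9 do, the interval of Gria4 running from -0.34 to -0.0064.

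Without APP/PS1 replicate 3 the subunits divided evenly, 5 with positive and 5 with negative log2 fold changes and a median of -0.00059 against -0.0011 over all 18302 genes. Again 0 of 10 passed edgeR's test, where 0.0273% of all genes did, and 0 of 10 passed DESeq2, where 0.319% did. The number at an unadjusted p under 0.05 was 1 of 10, against 4.03% of all genes. Intervals narrowed for each member: that of Gria1 ran from -0.12 to 0.19 and that of Gria3 from -0.11 to 0.18, while that of Grin2d still ran from -0.72 to 0.37. These intervals, and not the missed threshold, give the sizes of difference that the 5 libraries leave possible.

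In APP/PS1 replicate 3, 7 subunits were lower than in every other library (Gria1, Gria3, Grin1, Grin2a, Grin2b, Grin2d and Grin3a), 2 were higher than in every other (Gria4 and Grin2c), and Gria2 lay between. Over all genes tested, 30.2% were lowest in that library and 31.4% highest. Past 2-fold from the mean of the other 5 were 3 of 10 members, Gria4 and Grin2c above it and Grin2b below it, where 3.36% of all genes tested lay above and 1.61% below. No member passed 2-fold in any of the other 5 libraries. In bulk tissue, fewer cells of a type and less RNA per cell cannot be told apart, which holds for all of these levels.

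Ratios between subunits do not depend on library scaling, and 10 of them were compared by an exact permutation test, two-sided, which with 3 libraries against 3 cannot give a p below 0.1. Since exon lengths were not used, a ratio is of CPM and is compared only between libraries. No ratio had groups that did not overlap with all 6 libraries, exact permutation p ran from 0.2 to 1, and every value adjusted over the 10 ratios was 1. Without APP/PS1 replicate 3 the smallest p possible is 0.2, and 1 ratio, Gria2 over Gria4, had groups that did not overlap.

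The ratio of Gria2 to Gria1, which bears on calcium-permeable AMPA channels, was 0.508, 0.547 and 0.726 in WT and 0.571, 0.789 and 0.785 in APP/PS1. Each genotype held low and high libraries, and the ranges overlapped. The mean difference was 0.27 on the log2 scale (exact permutation p = 0.2), or 0.19 without APP/PS1 replicate 3 (exact permutation p = 0.4). Against the sum of Gria1, Gria3 and Gria4, Gria2 stood at 0.397, 0.428 and 0.557 in WT and at 0.450, 0.616 and 0.492 in APP/PS1, a difference of 0.17, or 0.21 without that library. Relative to Gria3 the difference was 0.24, or 0.19 without it, with 2.53 to 3.42 in WT and 2.82 to 3.86 in APP/PS1.

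Gria2 over Gria4 was 6.43, 6.83 and 7.98 in WT and 8.41, 10.3 and 2.07 in APP/PS1. The first 2 APP/PS1 libraries were above all WT libraries and replicate 3 far below, so the difference was -0.32 with that library and 0.40 without it (exact permutation p = 1 and 0.2).

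For NMDA receptors, the ratio of Grin2a to Grin2b, the usual index of receptor maturation, was 0.397, 0.421 and 0.426 in WT and 0.462, 0.412 and 0.538 in APP/PS1. APP/PS1 replicate 3 had the highest ratio of the 6, and APP/PS1 replicate 2 fell among the WT libraries. The difference was 0.17 on the log2 scale (exact permutation p = 0.3), or 0.07 without replicate 3 (exact permutation p = 0.6). Grin2c over Grin2b separated that library most: it was 0.316 there, 7.80 times the geometric mean of the other 5, which held 0.0359 to 0.0470. Its genotype difference was 0.92 with replicate 3 and -0.08 without.

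Grin2a and Grin2b summed were 2.68, 2.71 and 2.94 times Grin1 in WT and 2.86, 2.97 and 1.81 times in APP/PS1. APP/PS1 replicate 3 was the lowest of the 6, and the other 5 libraries ran from 2.68 to 2.97. The difference was -0.16 with that library and 0.07 without. The 4 AMPA transcripts summed over Grin1 did not set it apart, at 5.37 there and 4.14 to 5.98 elsewhere, with differences of 0.14 and 0.13. Grin3a over Grin1 was 0.136 there and 0.148 to 0.178 elsewhere (differences of -0.06 with it and 0.03 without). Grin2d over Grin2b ran from 0.00855 to 0.0150 over all 6 (0.02 and -0.19).

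**Figure D3:**
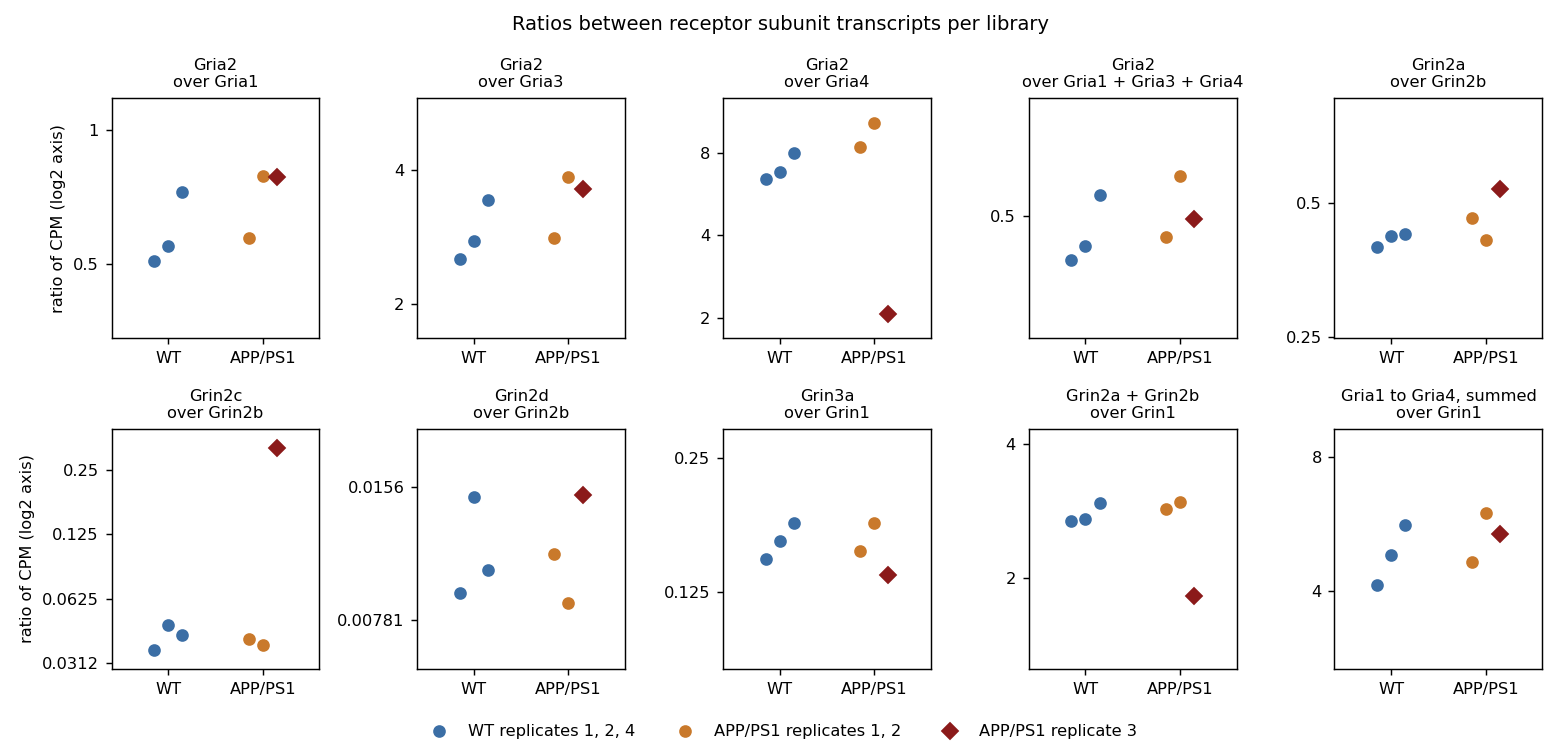
Ratios of CPM between subunits in each library on log2 axes, WT at left and APP/PS1 at right. APP/PS1 replicate 3, the diamond, lies far from the other 5 for Gria2 over Gria4 (2.07), Grin2c over Grin2b (0.316) and the sum of Grin2a and Grin2b over Grin1 (1.81).

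The genes that assemble, move and tune these receptors were described by 5 lists, and in none of them did a gene pass edgeR's test with 6 libraries or without APP/PS1 replicate 3. The APP/PS1 and WT values did not overlap for 4 of 49 genes (Frrs1l, Neto2, Arc and Grip2), against 10.4% of all genes tested. Of 19 auxiliary and assembly proteins of AMPA receptors 0 passed edgeR's test in either direction, 10 had positive and 9 negative log2 fold changes, and the median was 0.01, or -0.01 without APP/PS1 replicate 3. Frrs1l, which acts in AMPA receptor biogenesis, had APP/PS1 values wholly above those of WT, as 5.63% of all genes did, at a log2 fold change of 0.17 (SE 0.08), or 0.13 without that library. Gsg1l, an auxiliary subunit that dampens the current, had -0.28 (SE 0.14), or -0.25. Shisa8 was at 9.92 CPM in APP/PS1 replicate 3, 12.1 times the mean of the other 5, and its log2 fold change was 1.87 with that library and -0.90 without it. In the same library Syndig1 was also more than 2-fold higher and Cacng5 and Cnih2 more than 2-fold lower, all chosen after their values were seen. By this measure, with a pseudocount of 0.5 CPM, 3.36% of all genes tested lay above and 1.61% below. Cnih2, a cornichon, slows the closing of AMPA channels in hippocampal pyramidal cells. It was at 141, 124 and 107 CPM in WT and at 263, 97.2 and 55.8 CPM in APP/PS1 replicates 1, 2 and 3. The high value in APP/PS1 replicate 1 raised the mean to which APP/PS1 replicate 3 was compared.

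Of 10 trafficking and clustering partners 0 passed, 3 were positive and 7 negative, with a median of -0.11 that was 0.07 without APP/PS1 replicate 3. Arc, an activity-induced gene whose product promotes AMPA receptor internalization, had a log2 fold change of -0.52 (SE 0.27), or -0.26 (SE 0.11) without that library, and its APP/PS1 values lay below WT with and without it, as for 4.76% and 9.73% of all genes tested. Nptx1, a pentraxin that clusters AMPA receptors, had 0.24 (SE 0.12), or 0.13 without it. Grip2, a PDZ-domain scaffold, had -0.24 (SE 0.12), or -0.25, and its APP/PS1 values also lay below WT.

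Among 10 NMDA receptor partners and genes of co-agonist handling 0 passed, 5 were positive and 5 negative, and the median was 0.02 with and without APP/PS1 replicate 3. Neto2, an auxiliary protein of kainate receptors and kin of the NMDA partner Neto1, stood at 52.5, 46.4 and 53.2 CPM in WT and at 60.4, 61.6 and 103 CPM in the APP/PS1 libraries. It had a log2 fold change of 0.56 (SE 0.22, edgeR adjusted p = 0.887) and APP/PS1 values wholly above WT, as 5.63% of all genes did, and without replicate 3 it was 0.26 (SE 0.08). Slc6a9, the glycine transporter GlyT1, had 0.56 (SE 0.26), or 0.21 without that library. Dao, the oxidase that breaks down the co-agonist D-serine, was at 25.4 CPM in APP/PS1 replicate 3 and at 0.58 to 1.16 CPM in the other 5, so its log2 fold change was 3.13 with that library and -0.79 without.

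The kainate and delta receptors are the nearest kin of these subunits. Of their 7 subunits 0 passed, 2 were positive and 5 negative, with a median of -0.11, or -0.04 without APP/PS1 replicate 3. Grik2, a main kainate subunit, had a log2 fold change of 0.31 (SE 0.18) with that library and 0.08 (SE 0.08) without it. For Grid1, a delta receptor subunit, the values were -0.23 (SE 0.18) and -0.04 (SE 0.06).

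Adarb1 encodes the enzyme that edits the calcium-controlling codon of Gria2. It was at 283 CPM in APP/PS1 replicate 3 and at 186 to 232 CPM in the other 5, at a log2 fold change of 0.12 (SE 0.15) with that library and -0.04 without. Of 3 ADAR family genes 0 passed. For Adar the log2 fold change was -0.02 (SE 0.12), or 0.02 without it, and for Adarb2 it was -0.05 (SE 0.10), or 0.03. Editing itself was not measured.

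**Figure D4:**
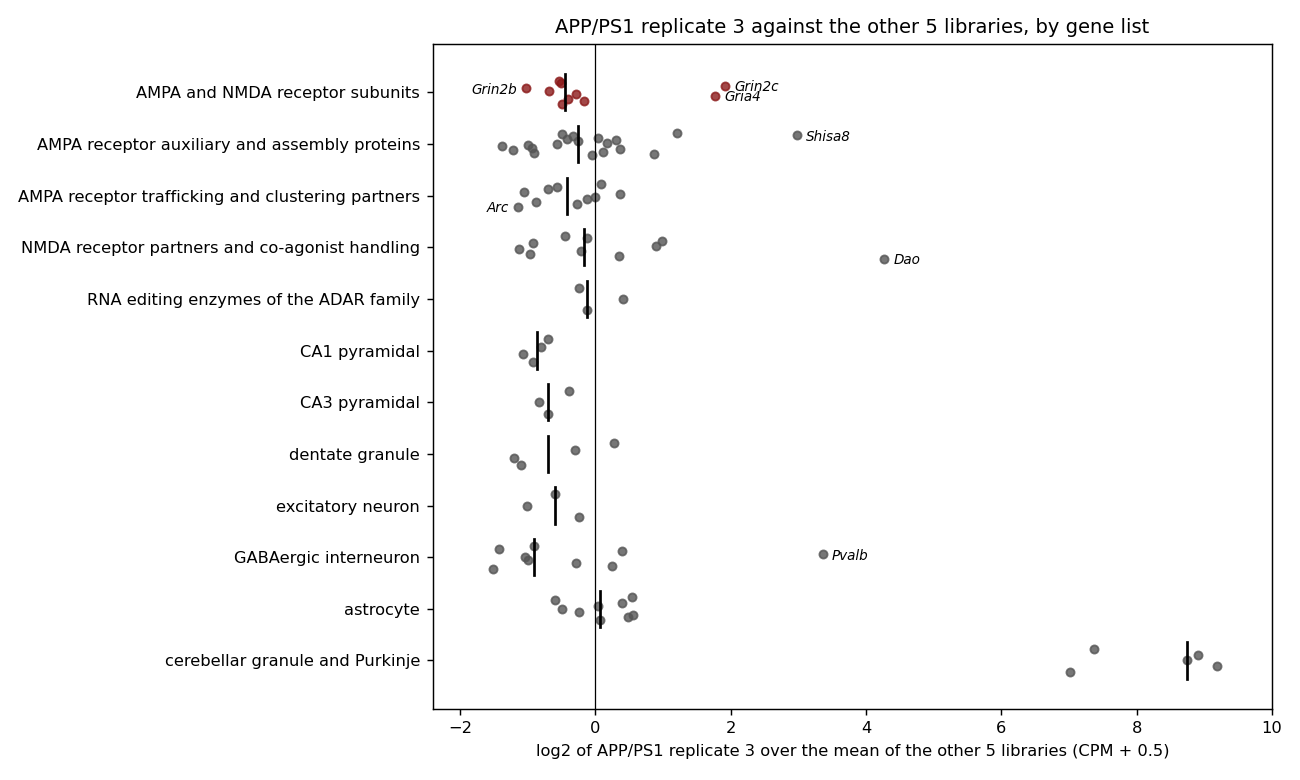
Log2 of the value in APP/PS1 replicate 3 over the mean of the other 5 libraries (CPM plus a pseudocount of 0.5) for each gene of 12 lists, with a vertical bar at the list's median. The subunits have a median of -0.45 with Gria4 and Grin2c at 1.77 and 1.92, the markers of CA1, CA3 and dentate gyrus lie mostly below 0, and the cerebellar markers lie between 7.01 and 9.19.

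Genes whose pattern over the 6 libraries was closest to a member were sought among 9990 genes with a mean of at least 10 CPM, by the root mean square difference of log2 CPM centred on each gene's mean. Nearest to Gria1 were Tnks1bp1, at a difference of 0.019, and Src at 0.022. Arhgef17 (0.023) and Pitpnm2 (0.024) were nearest to Grin2a, Kcnc2 (0.024) and Lrrtm1 (0.034) to Grin2b, and Ptov1 and Znrf1 (both 0.038) to Grin1. All of these were lowest in APP/PS1 replicate 3. Nearest to Gria2 were Poli (0.060) and Ndufb3 (0.071), which like Gria2 were highest in WT replicate 4 and APP/PS1 replicate 2. With 6 libraries and so many genes, such closeness describes these libraries only.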

How the data were processed

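Per gene symbol, the authors deposited estimated counts, given as whole numbers. Tools listed in the submitters' processing notes are HISAT2, StringTie and DESeq, with the build mm10 but no versions or roles. How counts were made, with which annotation, strand setting and filters, is not given in the sources used here. The value 4 occurs 1817 times, 3 occurs 897 times, 5 occurs 1346 times, 6 occurs 624 times and 8 occurs 1201 times. So 1 fragment may stand for about 4 estimated counts, but 5 is more frequent than 8, which leaves the unit unclear. Depth in fragments is uncertain. Coordinates, found for all 10 members, and upstream windows, matched for 5 of 10, come from RefSeq tables of GRCm38.p6.

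APP/PS1 was compared with WT by edgeR 4.0.16 (R 4.3.3) on the whole table, with quasi-likelihood test, TMM, the default expression filter (18060 genes kept), no covariate and Benjamini-Hochberg adjustment at 0.05. Standard errors and 95% intervals were derived from the fold change and the F statistic. Replicates are mice, and spread between libraries, with a biological coefficient of variation of 26.5% (19.7% without APP/PS1 replicate 3), rather than counting error set the precision for abundant genes. Ratios were tested by exact permutation over libraries (scipy 1.17.1). Lists were described by counts and medians, with no set test.

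The members, lists and ratios were chosen with earlier results of these data known. Named genes were all members, App and Prnp, the 3 listed genes with the smallest p per pathway list, and the 2 genes closest in pattern to each of Gria1, Gria2, Grin1, Grin2a and Grin2b. One gene that this rule names is not reported here. The alternatives were other size factors, filters and tests (DESeq2 1.42.0, limma 3.58.1), counts divided by 4, a replicate block and leaving out each library. DESeq2 without APP/PS1 replicate 3 was added after seeing the data. Fold changes of genes near 0 in one group depend on the prior count.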

Additional observations from a re-analysis of the deposited data

How the results depend on the processing

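No subunit passed the threshold under any setting tried, and edgeR's, DESeq2's or limma-voom's adjusted p for the members lay between 0.563 and 0.999. Other size factors, other filters, DESeq2, limma-voom and counts divided by 4, all on 6 libraries, kept the sign of every member. Leaving out 1 library gave log2 fold changes from -0.22 to 0.034 for Gria1, -0.015 to 0.28 for Gria2, -0.18 to 0.035 for Gria3, -0.18 to 1.07 for Gria4, -0.24 to -0.0082 for Grin1, -0.34 to 0.091 for Grin2a, -0.48 to 0.0064 for Grin2b, -0.070 to 1.26 for Grin2c, -0.53 to -0.11 for Grin2d and -0.27 to -0.0076 for Grin3a. Without APP/PS1 replicate 1, Grin2d had an unadjusted p of 0.0375 in edgeR (adjusted p = 0.563), where 1501 of 18375 genes had one under 0.05. Without APP/PS1 replicate 2, Grin2c had an unadjusted p of 0.0452 in edgeR (adjusted p = 0.749), where 973 of 18333 genes had one under 0.05. Gria2 changed sign without APP/PS1 replicate 2, and Gria1, Gria3, Gria4, Grin2a, Grin2b and Grin2c without APP/PS1 replicate 3. DESeq2 without that library gave 0.034 for Gria1, 0.035 for Gria3, -0.18 for Gria4, 0.091 for Grin2a, 0.0063 for Grin2b and -0.070 for Grin2c. Leaving out 1 library moved the log2 ratio differences from 0.17 to 0.42 (Gria2 over Gria1), 0.045 to 0.32 (Gria2 over the other Gria genes), -0.76 to 0.40 (Gria2 over Gria4), -0.083 to 1.45 (Grin2c over Grin2b), -0.19 to 0.23 (Grin2d over Grin2b), -0.16 to 0.032 (Grin3a over Grin1) and -0.28 to 0.070 (Grin2a with Grin2b over Grin1). Over all genes, edgeR called 1 with 6 libraries, 0 to 6 with 1 library left out, 24 with DESeq2 and 63 with DESeq2 without APP/PS1 replicate 3; the cause was not tested. Sums per kilobase of exon were not run, since exon lengths were not used.

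Replicate numbers 1 and 2 occur in both genotypes, but nothing in the labels says that they pair mice. Deviations of same-numbered libraries correlated at 0.17 for number 1 and -0.025 for number 2. For differently numbered libraries the correlations ran from -0.11 to 0.086, so that of number 1 was the highest of all. A fit with the replicate number as a block, which leaves those 4 libraries to decide, called 2 genes and no subunit. Under the block log2 fold changes were 0.016 for Gria1, 0.36 for Gria2 (SE 0.09, edgeR unadjusted p = 0.00995, adjusted p = 0.979), 0.048 for Gria3, -0.13 for Gria4, 0.066 for Grin2a and -0.10 for Grin2c. The paired differences in log2 ratio were 0.49 for Gria2 over Gria4, -0.070 for Grin2c over Grin2b, -0.25 for Grin2d over Grin2b, 0.10 for Grin3a over Grin1 and 0.11 for Grin2a with Grin2b over Grin1.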
